A study of Mus musculus with 78 samples.

Results

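The respiratory chain and ATP synthase genes examined here are the protein-coding autosomal genes of the mm10 annotation whose symbols start with Nduf, Uqcr, Sdha to Sdhd, Cox and a digit, or Atp5. The rule found 104 gene records of 20807, with 103 symbols, since Atp5o has 2 records. Peaks were counted within 3 kb of the transcription start site (TSS), the 5' end of the gene record, in 72 ChIP-seq peak lists of C2C12 myotubes, which are muscle fibres formed in culture by fusion of a mouse myoblast line of strain C3H. Cells were synchronized by a horse serum shock, which aligns their circadian clocks, and collected at 12, 16, 20, 24, 28 and 32 h, with 3 biological replicates per time point and profile.

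The 4 profiles were HA-EZH1, Bio-EZH1, SUZ12 and H3K27me3. EZH1 is a histone methyltransferase of Polycomb repressive complex 2 (PRC2), SUZ12 is an obligatory subunit of the complex, and trimethylated lysine 27 of histone H3 (H3K27me3) is the mark it deposits on repressed genes. HA-EZH1 libraries are labelled C3H/C2C12, and neither an antibody nor a modified line is named. The methods describe more than 1 knockdown line with an HA-tagged EZH1α, constitutive or inducible, and tie none to these libraries. Bio-EZH1 and SUZ12 come from knockdown cells (shEzh1 BirA+EZH1α-Avi) sorted for retroviral BirA ligase and an Avi-tagged EZH1α, which BirA biotinylates, and were profiled after double crosslinking. H3K27me3 libraries are labelled as C2C12 alone. The paper names cells with BirA alone as the control of Bio-EZH1. For HA-EZH1 the labels list an input at each time. HA-EZH1 and Bio-EZH1 thus differ in tag and in control. The line and fixation of HA-EZH1 are not given in the sources used here. Effects of tag, control, line and fixation therefore cannot be told apart in a comparison of the 2 profiles.

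The respiratory chain of the inner mitochondrial membrane passes electrons from NADH through complex I, or from succinate through complex II, to ubiquinone, then through complex III and cytochrome c to complex IV, which reduces oxygen. Complexes I, III and IV pump protons, and ATP synthase uses the gradient to make ATP. Most subunits are encoded in the nucleus by broadly expressed genes with TATA-less promoters, and muscle, a tissue with a high demand for ATP, uses a few isoforms of its own.

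HA-EZH1 lists held 2347 to 16366 peaks, Bio-EZH1 lists 8539 to 19827, SUZ12 lists 21425 to 40379 and H3K27me3 lists 45120 to 70797. The HA-EZH1 lists of 20 and 24 h are the longest of that profile, yet 1.28% to 1.85% of all genes had a promoter peak in them, against up to 16.96% at 12 h. Each peak has a fold enrichment, the ratio of its signal to the background modelled by the peak caller. It is not calibrated between libraries, the read depth is unknown, and p-values measure the spread between these samples only. Cell identity can be read here only from chromatin: of the markers of other cell types 8 of 9 were bound by H3K27me3, among them Neurod1 and Alb, against 2 of 12 myotube markers, Acta1 and Ckm.

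HA-EZH1 peaks stood at the promoters of 24 of the 104 genes, against 10.2% of all genes. Binding at a given time required a peak with q under 0.01 within 3 kb in each of the 3 replicates, and an overlap of these peaks by at least 1 bp. The share was 23.1% for the respiratory chain genes. It was 21.5% for the cytosolic ribosomal protein genes, another set of broadly expressed genes, of which 17 of 79 were bound. Genes without H3K27me3 gave shares of 21.7% among respiratory chain genes and 9.99% among all genes. All but 3 of the 24 were bound at 12 or 32 h, and 1, Uqcr10, was bound at every time. Another protein-coding TSS lay within 2 kb of 39 of the 104 genes, against 3033 of all 20807 genes. Peaks in the window can thus lie nearer to a neighbour, as at Uqcrh and Atp5a1 in every library with a peak.

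The promoters of the genes with the most HA-EZH1 peaks are shown first, because the position of the peak summits can be read on them. They are RefSeq sequences of GRCm38.p6, the assembly of mm10, from 250 bases before to 50 after the annotated start, and 83 of the 104 records have one. The first 5 genes come in the order of the number of HA-EZH1 libraries with a peak. Uqcr11 was added, after its values were seen, as a gene with HA-EZH1 peaks at 28 h alone. Capitals mark matches to any of 10 searched motifs on either strand, and positions count from the RefSeq start, with 1 as its first base.
Uqcr10: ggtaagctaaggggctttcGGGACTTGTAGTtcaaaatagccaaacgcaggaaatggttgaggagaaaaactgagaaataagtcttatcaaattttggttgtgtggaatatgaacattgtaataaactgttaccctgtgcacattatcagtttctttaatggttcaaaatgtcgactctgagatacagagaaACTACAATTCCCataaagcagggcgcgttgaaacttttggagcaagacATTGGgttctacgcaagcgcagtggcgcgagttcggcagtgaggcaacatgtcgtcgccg
Ndufa3: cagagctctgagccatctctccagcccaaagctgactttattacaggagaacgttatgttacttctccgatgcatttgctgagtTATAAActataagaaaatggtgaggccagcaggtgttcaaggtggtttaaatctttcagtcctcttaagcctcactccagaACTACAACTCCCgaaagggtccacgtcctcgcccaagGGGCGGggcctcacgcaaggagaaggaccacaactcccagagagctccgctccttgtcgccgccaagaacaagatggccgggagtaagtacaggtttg
Ndufb5: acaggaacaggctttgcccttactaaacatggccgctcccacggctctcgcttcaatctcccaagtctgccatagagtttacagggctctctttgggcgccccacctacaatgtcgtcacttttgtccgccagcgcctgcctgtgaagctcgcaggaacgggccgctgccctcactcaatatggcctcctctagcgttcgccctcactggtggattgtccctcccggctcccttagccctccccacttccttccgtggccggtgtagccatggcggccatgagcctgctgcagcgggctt
Ndufs7: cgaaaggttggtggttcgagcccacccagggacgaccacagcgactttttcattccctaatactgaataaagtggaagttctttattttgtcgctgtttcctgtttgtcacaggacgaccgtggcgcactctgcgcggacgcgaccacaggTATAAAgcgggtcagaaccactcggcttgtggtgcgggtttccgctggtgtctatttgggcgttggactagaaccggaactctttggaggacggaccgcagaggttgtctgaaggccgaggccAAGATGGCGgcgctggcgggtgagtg
Cox7c: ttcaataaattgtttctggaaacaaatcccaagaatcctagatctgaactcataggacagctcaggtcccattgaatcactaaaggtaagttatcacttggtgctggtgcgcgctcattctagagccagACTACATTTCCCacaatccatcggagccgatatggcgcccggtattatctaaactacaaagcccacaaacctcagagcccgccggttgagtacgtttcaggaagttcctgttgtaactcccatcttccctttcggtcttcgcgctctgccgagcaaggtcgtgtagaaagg
Uqcr11: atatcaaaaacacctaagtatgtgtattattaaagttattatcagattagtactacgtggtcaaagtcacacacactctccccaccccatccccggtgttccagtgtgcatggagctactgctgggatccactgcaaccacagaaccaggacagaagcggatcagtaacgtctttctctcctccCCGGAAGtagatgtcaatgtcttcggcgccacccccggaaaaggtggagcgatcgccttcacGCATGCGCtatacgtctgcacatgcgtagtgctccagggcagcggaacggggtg

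These windows lie at chr11:4704295-4704594 (Uqcr10, minus strand), chr7:3617123-3617422 (Ndufa3, plus), chr3:32736813-32737112 (Ndufb5, plus), chr10:80249199-80249498 (Ndufs7, plus), chr13:86046746-86047045 (Cox7c, minus) and chr10:80406772-80407071 (Uqcr11, minus). HA-EZH1 summits fell inside the printed window in every library with a peak for Ndufa3, from -91 to 13 bases of the RefSeq start, and for Cox7c, from -84 to -41. In Uqcr10 they lay between -241 and -137. Ndufb5 summits lay upstream, with a median of -277.5 bases. The neighbouring Mrpl47 starts 615 bp downstream of the Ndufb5 TSS on the other strand, and the Ndufb5 TSS was the nearest in all 12 libraries. Ndufs7 summits had a median of 71 bases after the RefSeq start, which itself is 328 bp downstream of the TSS of the gene record.

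The core of the site known for the zinc finger factor ZNF143 (Zfp143 in mouse) was searched after these sequences had been read. In Uqcr10 it reads ACTACAATTCCC at -58 to -47, and the search let the AT before the final TCCC be any bases. It also occurs in Uqcr10 on the other strand at -231 to -220, in Ndufa3 at -85 to -74 and in Cox7c at -121 to -110. Of the respiratory chain promoters 7 of 83 hold them, against 2.99% of 15704 promoters of all genes. Among genes bound by HA-EZH1 the letters were in 4 of 20 respiratory chain promoters and in 16.4% of 1651 promoters of all genes. The fourth bound gene is Atp5o, where the site is 22 bp upstream of the TSS and the median summit is 11 bp downstream of the site. The median summits of Ndufa3 and Cox7c were 49 and 37 bp downstream of the site. In Uqcr10 the median summit was 41 bp downstream of the farther site, and its difference from the nearer site was -132 bp. Of the 63 respiratory chain promoters not bound by HA-EZH1, 3 hold the letters: Ndufv1, Atp5d and the Atp5o record with no peak. In Atp5d and that Atp5o record the letters lie over 3 kb from the TSS used here. Both Atp5o records have the same RefSeq promoter, which is thus counted as bound and as not bound, and the 83 records hold 82 distinct sequences, 6 of them with the letters. A match of letters is a description and not a binding site.

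The other motifs were those of factors known for nuclear respiratory genes or for promoters in general, and none contains another. NRF1 (GCGCATGC), an activator of respiratory genes, matched 14.5% of respiratory chain promoters, against 3.8% of all promoters. ETS factors such as GABP (CCGGAAG) matched 30.1%, against 12.6% of all. YY1 (AAGATGGCG) matched 9.64%, against 2.02% of all, ERR (CAAGGTCA) 4.82%, against 1.24%, and CRE (TGACGTCA) 4.82%, against 2.48%. The SP letters (GGGCGG) were in 49.4% of respiratory chain promoters, against 48.8% of all promoters. The NFY letters (CCAAT) were in 41%, against 38.4% of all. The TATA box (TATAAA) was in 10.8%, against 12.9% of all. The E-box (CACGTG) was in 6.02%, against 8.11% of all. NRF1 letters were in 2 of 20 HA-EZH1-bound and 10 of 63 other respiratory chain promoters, and ETS letters in 4 of 20 and 21 of 63. YY1 letters were in 4 of 20 bound and 4 of 63 other promoters, and CRE letters in 3 of 20 and 1 of 63. Ndufs7 holds the YY1 letters at 25 to 33, and Uqcr11 the NRF1 letters at -4 to 4 and the ETS letters at -66 to -60.

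The share of respiratory chain genes with an HA-EZH1 peak averaged 26.9% ± 3.47 in the 12 h libraries, 13.8% ± 1.47 in those of 16 h, and 0.962% ± 0 in those of 20 h. It averaged 1.28% ± 0.555 in the 24 h libraries, 13.5% ± 0 in those of 28 h, and 25.6% ± 6.26 in those of 32 h (SD, n = 3 each). Over all genes it was 13.1% ± 3.38, 7.76% ± 1.03, 1.56% ± 0.284, 1.44% ± 0.0809, 3.57% ± 0.0894 and 11.8% ± 2.8 at these times. The ratio between the shares was 2.05 at 12 h and 2.17 at 32 h, and 3.77 at 28 h. Ribosomal protein genes had 26.6% ± 4.38 at 12 h, 10.1% ± 2.19 at 16 h, 12.7% ± 1.27 at 28 h and 23.2% ± 5.85 in the 32 h libraries. At 20 and 24 h each library had a peak at 1 or 2 of the 104 genes.

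**Figure D1:**
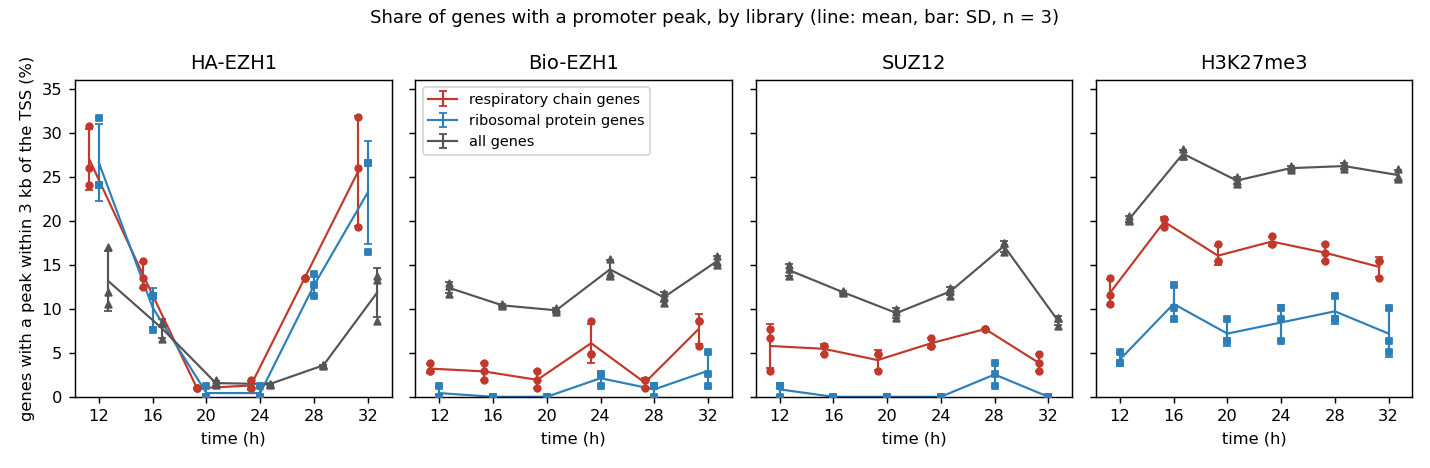
Percentage of genes with a peak within 3 kb of the TSS (y axis) in each library, by time after synchronization (x axis, h), for respiratory chain genes (red), cytosolic ribosomal protein genes (blue) and all genes (grey), in 4 panels by profile. Lines join means and bars are SD (n = 3). In HA-EZH1 the red points lie above the grey at 12, 16, 28 and 32 h and near 1% at 20 and 24 h, while in the other 3 profiles they lie below the grey at every time.

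Bound genes followed the same course. At 12 h HA-EZH1 bound 18 of the 104 genes, against 6.7% of all genes, and at 16 h it bound 8, against 4.19%. At 20 h and at 24 h it bound 1, Uqcr10, against 0.538% and 0.461% of all genes. At 28 h it bound 8, against 1.89%, and at 32 h 15, against 6.42%. All 8 genes bound at 16 h were also bound at 12 h, and 12 genes were bound at both 12 and 32 h. That overlap is 66.7% of the 12 h genes and 80.0% of the 32 h genes, against 67.8% and 70.8% in all genes. Of the 8 genes bound at 28 h, 5 were also bound at 12 or 32 h, 62.5% against 54.6% in all genes, and 3 were bound at no other time, namely Uqcr11, Uqcrb and Ndufaf1.

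By complex, HA-EZH1 bound 6 of 8 complex III subunits, against 10.2% of all genes: Uqcr10, Uqcrh, Uqcrfs1, Uqcrc2, Uqcrb and Uqcr11. Their own TSS was the nearest in 0 of 9 libraries at Uqcrh, 5 of 18 at Uqcr10 and 2 of 4 at Uqcrb. Gm10767 was nearest in the other Uqcrb libraries. At Uqcr11, Uqcrc2 and Uqcrfs1 the own TSS was nearest in every library with a peak. In complex I HA-EZH1 bound 1 of 7 core subunits, 9 of 27 accessory subunits and 2 of 8 assembly factors. It bound 0 of 4 complex II subunits, although all 4 had a peak in 2 of the 18 libraries. In complex IV it bound 1 of 10 common subunits, Cox7c, 1 of 10 assembly and supercomplex factors, Cox20, and 0 of 8 isoforms of restricted tissue expression. In ATP synthase it bound 4 of 18 records: Atp5a1, Atp5j, Atp5o and Atp5g2. Of the 104 records, 48 had no HA-EZH1 peak in any library and 32 had no peak in any of the 72 lists. Those without any peak were Atp5c1, Atp5d, Atp5g1, Atp5h, Atp5mpl, the second Atp5o record and Atp5s of ATP synthase, and Cox4i1, Cox4i2, Cox5b, Cox6b2, Cox7a1, Cox7a2, Cox7b2, Cox8a, Cox8b, Cox11 and Cox18 of complex IV. The others were Ndufa6, Ndufa11, Ndufa12, Ndufb4, Ndufb6, Ndufb9, Ndufb10, Ndufc1, Ndufc2, Ndufv1, Ndufv2, Ndufaf3 and Ndufaf7 of complex I, and Sdhaf4 of complex II.

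Uqcr10, a small subunit of complex III, had an HA-EZH1 peak in 18 of 18 libraries and is 1 of 32 genes of the whole set bound at all 6 times. Its fold enrichments were 8.39, 7.50 and 8.14 at 12 h, 6.15, 6.34 and 5.79 at 16 h, and 3.605, 3.25 and 3.23 at 20 h. They were 2.95, 2.84 and 2.78 at 24 h, 10.02, 9.96 and 10.8 at 28 h, and 6.81, 6.07 and 5.28 at 32 h. Since these values are not calibrated, they were read against the other peaks of the same list. The Uqcr10 peak ranked between the 95.2 and 99.6 percentile of fold enrichment of its list at 12, 16, 28 and 32 h, and between the 30 and 74.4 percentile at 20 and 24 h. The summits lay between Uqcr10 and the divergent gene Zmat5, whose TSS is 336 bp away, and the nearest TSS was that of Uqcr10 in 5 of 18 libraries.

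**Figure D2:**
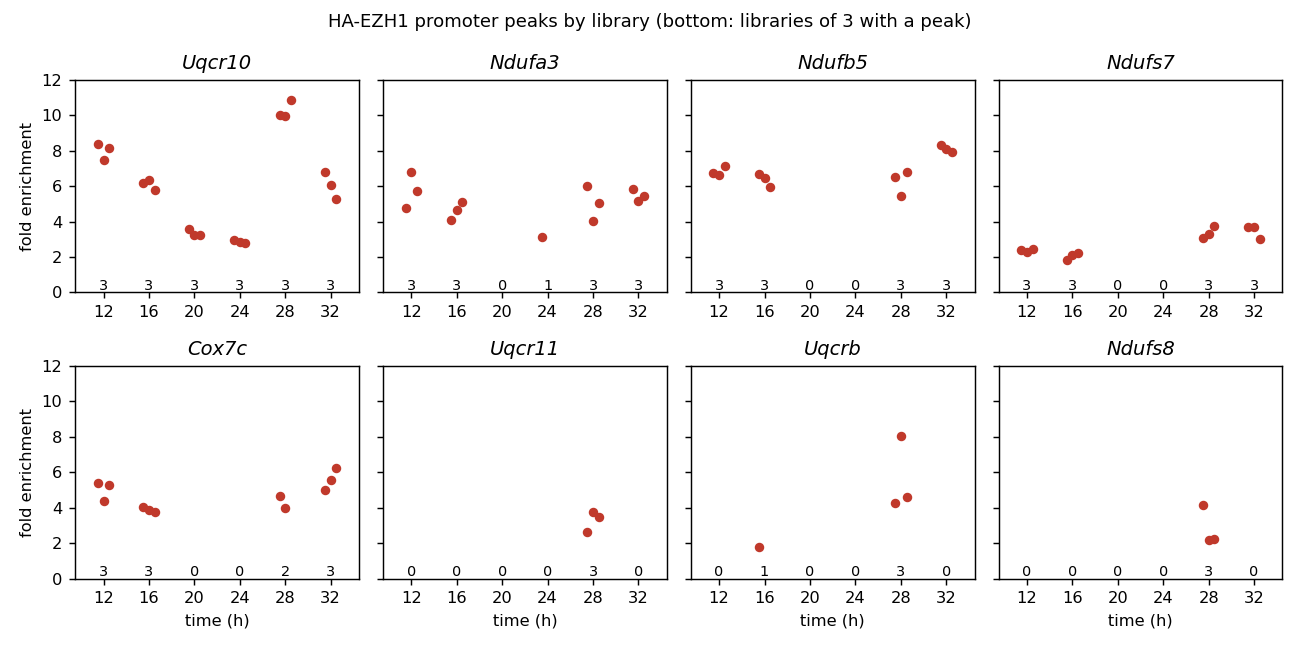
Fold enrichment of the HA-EZH1 promoter peak (y axis, ratio over the modelled background) by time (x axis, h) for 8 genes, each point being a library with a peak, with the number of libraries of 3 that had one printed at the bottom. Uqcr10 has 3 points at every time, Ndufb5 and Ndufs7 have none at 20 and 24 h, and Uqcr11 and Ndufs8 have points at 28 h alone.

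Ndufb5, an accessory subunit of complex I, had HA-EZH1 peaks in 12 libraries. The fold enrichment was 6.72, 6.61 and 7.13 at 12 h, 6.71, 6.47 and 5.95 at 16 h, 6.49, 5.44 and 6.82 at 28 h, and 8.32, 8.11 and 7.91 at 32 h. No library of 20 or 24 h had a peak. Ndufs7, a core subunit of complex I that carries its last iron-sulfur cluster, had peaks in the same 12 libraries at 1.82 to 3.74. These genes had adjusted p = 0.00387 in the exact test of presence over time.

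That test asks whether the libraries with a peak gather at some of the 6 time points, given their number. It was run on genes with a peak in 3 to 15 of 18 libraries, with Benjamini-Hochberg adjustment over all genes tested. For HA-EZH1 it called 21 of 33 respiratory chain genes tested, 63.6%, against 59.0% of all genes, so the share is near that of the genome. The other 71 records were not tested, since 70 had fewer than 3 libraries with a peak and Uqcr10 had all 18. With 2 of the 3 replicates, or without 20 and 24 h, 0 genes of the genome passed, against 21 respiratory chain genes in all 18 libraries. In both settings the test has fewer arrangements, so its smallest possible p is larger. With 2 of the 3 replicates, the 0 therefore cannot show whether the calls are stable.

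Among the genes called, Uqcrh, the acidic hinge protein of complex III, Atp5j, coupling factor 6 in the peripheral stalk of ATP synthase, and Ndufb2, a complex I accessory subunit, had peaks in 3 of 3 libraries at 12, 16 and 32 h. They had none at 20, 24 and 28 h (adjusted p = 0.00276 by the exact test). The fold enrichment of Uqcrh averaged 3.99 ± 0.378 at 12 h, 4.06 ± 0.266 at 16 h, and 4.98 ± 0.375 in the 32 h libraries (SD, n = 3 each). In the same order of times, Atp5j averaged 4.90 ± 0.0741, 2.999 ± 0.4998 and 3.82 ± 0.417. Ndufb2 averaged 2.57 ± 0.223, 3.17 ± 0.196 and 3.70 ± 0.917. The Uqcrh summits were nearer to the TSS of Lrrc41, 198 bp away, in all 9 libraries.

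Atp5o, which encodes the OSCP subunit that joins stalk and catalytic head, had a peak in 3, 2, 0, 0, 0 and 3 libraries from 12 to 32 h. Atp5a1, the catalytic-head alpha subunit, and Ndufaf6, a complex I assembly factor, had 3, 1, 0, 0, 0 and 3. The Atp5a1 summits were nearest to the TSS of Haus1, 157 bp from that of Atp5a1, in all 7 libraries. Adjusted p was 0.0143 for Atp5o and 0.0169 for the other 2 genes by the exact test. Ndufa10, an accessory subunit of complex I, had 3 libraries each at 12 and 32 h and none between (adjusted p = 0.00387 by the exact test). Ndufa7, whose TSS is 10 bp from that of the ribosomal protein gene Rps28, had 3, 0, 0, 0, 1 and 3 (adjusted p = 0.0169 by the exact test), with a nearest TSS of Rps28 in 4 of 7 libraries. These genes are alike in lacking peaks at 20 and 24 h. Few genes of the whole set had one then, 1.56% at 20 h and 1.44% at 24 h on average.

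**Figure D3:**
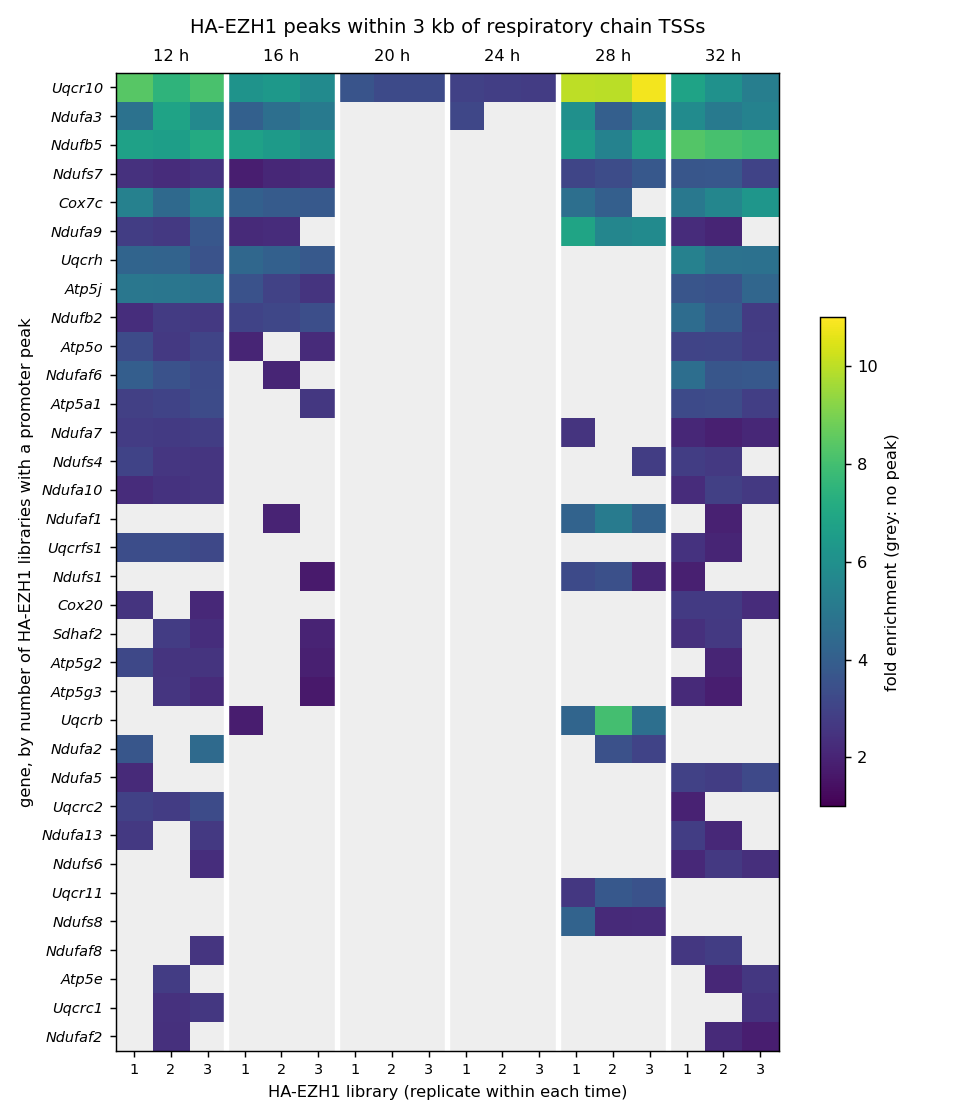
Fold enrichment (colour) of the HA-EZH1 promoter peak in 18 libraries (columns, 3 replicates per time) for the 34 respiratory chain genes with a peak in 3 or more libraries (rows, ordered by the number of libraries). Grey means no peak. Columns of 20 and 24 h are grey but for Uqcr10 and 1 library at Ndufa3, and several rows hold peaks mainly at 28 h.

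Some genes had HA-EZH1 peaks at 28 h and none at 12 h. Of 14 genes with a peak in 2 or 3 libraries at 28 h, 7 had none at 12 h, 50% against 43.9% in all genes. They were named after their values were seen: Uqcr11, Uqcrb, Ndufs8, Ndufs1, Ndufaf1, Sdhd and Atp5j2. Conversely, of 18 genes with a peak in all 3 libraries at 12 h, 10 had none at 28 h, 55.6% against 81.3% in all genes. Uqcr11, a subunit of complex III, and Ndufs8, an iron-sulfur core subunit of complex I, had 3 libraries at 28 h and 0 at all other times (adjusted p = 0.0185 by the exact test). Fold enrichment at 28 h was 3.30 ± 0.585 for Uqcr11 and 2.86 ± 1.13 for Ndufs8 (SD, n = 3 each). Within their lists, the Ndufs8 peaks ranked at the 81.2, 0.807 and 1.19 percentile of fold enrichment in replicates 1, 2 and 3. The Uqcr11 peaks ranked at the 7.20, 67.4 and 55.3 percentile in the same order. Uqcr11 was bound at 28 h, while Ndufs8 was bound at no time, since its peaks of replicates 2 and 3 missed the q threshold. In Ndufs8 1 library had its summit at -875 bp from the TSS and the others within 167 bp.

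Uqcrb, also of complex III, had 5.65 ± 2.07 at 28 h, with 1 library at 16 h (adjusted p = 0.0498 by the exact test). Ndufaf1, an assembly factor of complex I, had 4.48 ± 0.574 at 28 h, and Ndufs1, the largest core subunit, 2.92 ± 0.761. Ndufaf1 and Ndufs1 each had 1 library at 16 h and 1 at 32 h and did not pass the exact test (adjusted p = 0.1004). Ndufa9, a complex I accessory subunit, was bound at 12 and 28 h, with 6.06 ± 0.681 at 28 h and 3.05 ± 0.569 at 12 h (adjusted p = 0.0438 over time by the exact test). The median fold of whole lists was 3.42 to 3.50 at 28 h and 2.83 to 3.00 at 12 h. In libraries of 28 h the median peak at a respiratory chain gene ranked at the 74.1 percentile of its list, against 43.6 at 12 h and 44.5 at 32 h.

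HA-EZH1 summits at the respiratory chain genes were close to the TSS. Of 256 peaks, counted once per gene and library as the strongest in the window, 88.3% had a summit within 500 bp of the TSS, with a median of 157.5 bp downstream. For 77.7% the nearest protein-coding TSS was that of the gene itself. The exceptions beyond 2 kb were the 4 libraries of Ndufs6. Of 38 genes with summits at more than 1 time, 29 had medians by time within 100 bp of each other, and the widest difference was 1677 bp, at Atp5g2. The medians for Ndufs7 were 408, 398, 412 and 383 bp downstream of the TSS at 12, 16, 28 and 32 h, and those for Cox7c were 26, 42, 55 and 30 bp. Divergent TSSs within 1 kb were present at 4 of 24 bound and 19 of 80 other genes, 16.7% and 23.8%. Only the nearest other gene was considered, and only with its TSS upstream on the opposite strand. Opposite-strand starts downstream, as that of Mrpl47 at Ndufb5, were not counted.

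**Figure D4:**
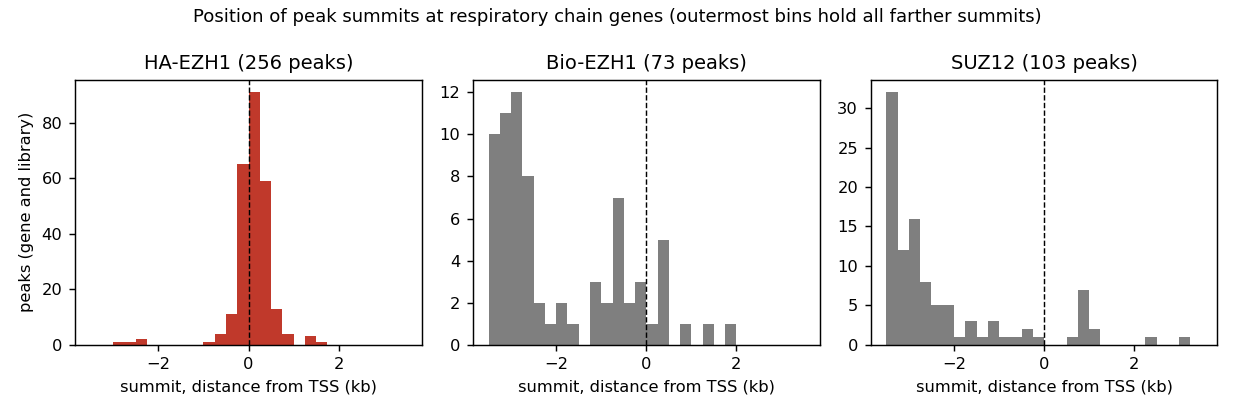
Distance of peak summits from the TSS of respiratory chain genes (x axis, kb, negative upstream) against the number of peaks by gene and library (y axis), for HA-EZH1, Bio-EZH1 and SUZ12. HA-EZH1 summits gather within 0.5 kb of the TSS, while most Bio-EZH1 and SUZ12 summits lie over 2 kb upstream.

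Bio-EZH1 bound 3 of the 104 genes, against 12.4% of all genes, SUZ12 bound 6, against 14.8%, and H3K27me3 bound 12, against 22.9%. Bio-EZH1 bound Ndufa3, Ndufb8 and Cox19, and SUZ12 bound these with Cox7c, Cox6a2 and Cox6b1. All 6 genes were among the 12 bound by H3K27me3, the others being Ndufa9, Ndufa10, Ndufb7, Cox6a1, Cox7a2l and Cox8c. HA-EZH1 shared 2 genes with Bio-EZH1 or SUZ12, Ndufa3 and Cox7c, and 4 with H3K27me3. Of the genes bound by H3K27me3, HA-EZH1 bound 33.3% in the respiratory chain set and 10.9% in all genes. For the overlap with Bio-EZH1 or SUZ12 the share over all genes was not counted. Ribosomal protein genes had 0 of 79 bound by Bio-EZH1 and 0 by SUZ12.

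The peaks of these profiles were mostly at the edge of the window. The median distance of the summit from the TSS was 2687 bp for Bio-EZH1 and 2855 bp for SUZ12, against 216 bp for HA-EZH1. Summits within 500 bp made up 15.1% of 73 Bio-EZH1 peaks and 2.91% of 103 SUZ12 peaks. H3K27me3 peaks covered the TSS itself in 15.3% of the 301 cases. In a window of 1 kb the bound counts were 22 for HA-EZH1, 1 for Bio-EZH1, 2 for SUZ12 and 2 for H3K27me3, the last 2 being Cox19 and Cox8c. The shares of all genes in that window are not given here, so these changes cannot be set against those of the genome.

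Ndufa3, an accessory subunit of complex I, was bound in all 4 profiles. HA-EZH1 had a peak in 3, 3, 0, 1, 3 and 3 libraries from 12 to 32 h, Bio-EZH1 in 0, 3, 2, 3, 0 and 3, and SUZ12 and H3K27me3 in all 18. The fold enrichment of HA-EZH1 averaged 5.77 ± 1.02 at 12 h and 5.47 ± 0.338 in the 32 h libraries (SD, n = 3 each). HA-EZH1 summits had a median of -30 bp from the TSS, those of Bio-EZH1 -2760 bp and those of SUZ12 -2781 bp. The nearest TSS to every Bio-EZH1 and SUZ12 summit was that of Oscar, 1216 bp from that of Ndufa3. The course over time passed the exact test for HA-EZH1 (adjusted p = 0.0224) and not for Bio-EZH1 (adjusted p = 0.0869), and the difference between the courses was not tested.

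Cox7c, a small structural subunit of complex IV, had HA-EZH1 peaks in 11 libraries at 3.79 to 6.26, with summits 25 to 68 bp downstream of the TSS. SUZ12 peaks in 7 libraries had a median summit at -2195 bp. H3K27me3 was present in 18 libraries, its nearest edge 384 to 2220 bp from the TSS, and no library covered the TSS. Ndufa9 and Ndufa10 were similar, with H3K27me3 in 18 libraries and edges at least 1316 and 1139 bp away. At these genes the marked stretch and the HA-EZH1 summit lay next to each other and not on the same bases.

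Cox19, an assembly factor of complex IV, carried the mark over its TSS, as did the isoform genes Cox8c and Ndufa4l2. H3K27me3 covered the Cox19 TSS in 15 libraries, in 0 of 3 at 12 h and 3 of 3 at every later time, at 3.97 to 5.16-fold (adjusted p = 0.0192 over time by the exact test). H3K27me3 lists of 12 h held a promoter peak at 20.2% of all genes, against 24.6% to 27.6% at the other times. SUZ12 was found in 3 of 3 libraries at 28 h and in 0 elsewhere (adjusted p = 0.0210 by the exact test), with summits 432 to 525 bp upstream. SUZ12 lists of 28 h reached 17.1% of all genes, against 8.68% to 14.4% at the other times. Whether these differences between lists account for the courses at Cox19 was not tested. Bio-EZH1 was found in 11 libraries, with 2, 1, 0, 3, 2 and 3 from 12 to 32 h (adjusted p = 0.372 by the exact test). The nearest TSS was that of Cox19 in 5 of the 11 and that of Cyp2w1, 1199 bp away, in the others. HA-EZH1 was found in 0 of 18 libraries at Cox19. Ndufb8, of complex I, had SUZ12 and H3K27me3 in 18 libraries and Bio-EZH1 in 15, with 1 HA-EZH1 library, and a median SUZ12 summit at -3176.5 bp.

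Among the isoforms of restricted expression, Cox6a2, the heart and skeletal muscle form of subunit 6a, had H3K27me3 in 18 libraries and SUZ12 in 17, at 2.75 to 16.9-fold. The SUZ12 peaks were long, with a median of 13045 bp, and had a median summit at -9571 bp. The nearest H3K27me3 edge was 434 to 2965 bp from the Cox6a2 TSS, so that no peak covered it. Cox8c, the testis form of subunit 8, had H3K27me3 over its TSS in 17 of 18 libraries, SUZ12 in 13 and Bio-EZH1 in 3, all at 24 h. Ndufa4l2, a hypoxia-induced relative of Ndufa4, had H3K27me3 over its TSS in 12 of 14 libraries with a peak. Cox4i2, Cox6b2, Cox7a1, Cox7b2 and Cox8b, lung, testis and muscle forms among them, had no peak in any list, and HA-EZH1 had none at any of the 8.

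Over time, the exact test called 0 of 8 tested respiratory chain genes in Bio-EZH1, against 0.0% of all genes, with 2 of the 8 at an unadjusted p under 0.05, Ndufa3 and Cox8c. It called 1 of 6 in SUZ12, against 45.9% of all genes, and 2 of 10 in H3K27me3, against 41.5%. The genes called were Cox19 in both, and Cox7a2l, which promotes supercomplexes of complexes III and IV, in H3K27me3, with 0, 3, 0, 3, 1 and 0 libraries. Ndufa4l2 and Sdhaf1, a complex II assembly factor chosen after its values were seen, had 14 libraries with H3K27me3, none of them at 12 h (adjusted p = 0.0569 each by the exact test). At 12 h the H3K27me3 lists also reached the fewest genes of all times.

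**Figure D5:**
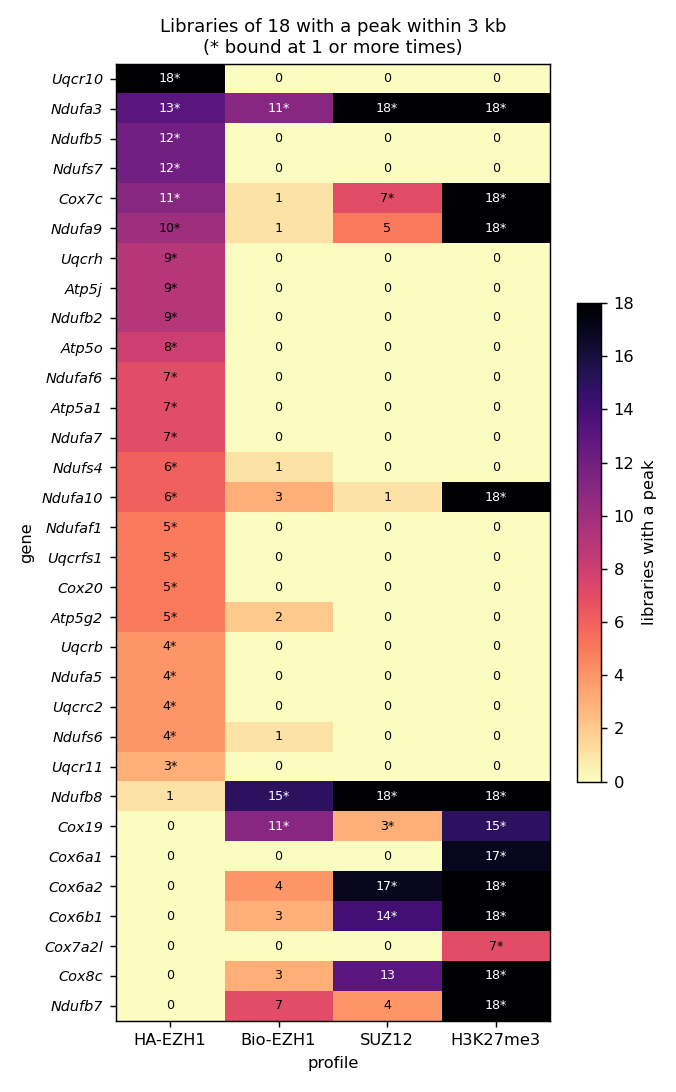
Number of libraries of 18 with a peak within 3 kb of the TSS (colour and digits) in each profile (columns) for the genes bound in 1 or more profiles (rows), an asterisk marking profiles that bound the gene. Most genes with HA-EZH1 have 0 in the other columns, and Ndufa3, Cox7c, Ndufa9 and Ndufa10 hold peaks in both HA-EZH1 and H3K27me3.

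To set the profiles against each other gene by gene, profile labels were permuted exactly within each time point, with adjustment over all genes with a peak in 3 or more of 36 libraries. HA-EZH1 had more libraries with a peak than Bio-EZH1 at 16 of 41 tested respiratory chain genes, against 23.2% of all genes, and fewer at 3, against 44.3%. It had more than SUZ12 at 17 of 40, against 22.5%, and fewer at 5, against 46.1%. Relative to H3K27me3 it had more at 18 of 50, against 16.1%, and fewer at 18, against 64.7%. The 3 comparisons share the HA-EZH1 libraries.

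Uqcr10 had 18 HA-EZH1 libraries against 0 Bio-EZH1 libraries (adjusted p = 2.71e-07 by the exact test), and Ndufb5 and Ndufs7 had 12 against 0 (adjusted p = 4.31e-05). Cox7c had 11 HA-EZH1 against 1 Bio-EZH1 library (adjusted p = 0.000552 by the exact test), and Ndufa9 had 10 against 1 (adjusted p = 0.00176). By the same exact test, fewer HA-EZH1 than Bio-EZH1 libraries were found at Ndufb8, with 1 against 15 (adjusted p = 3.06e-05), at Cox19, with 0 against 11 (adjusted p = 0.000296), and at Ndufb7, with 0 against 7 (adjusted p = 0.0139). Ndufa3, with 13 against 11, did not pass the exact test (adjusted p = 0.730).

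The direction at the 4 genes that HA-EZH1 and H3K27me3 share turned with the window and with the length of the lists. Within 3 kb, HA-EZH1 minus H3K27me3 libraries was -5 at Ndufa3, -7 at Cox7c, -8 at Ndufa9 and -12 at Ndufa10, all past the threshold. Within 1 kb the difference was 7, 10, 10 and 6, and with the 2000 peaks of smallest q per list, within 3 kb, it was 13, 11, 9 and 2. At Ndufa3 the difference from SUZ12 was likewise -5 within 3 kb, 7 within 1 kb and 13 with the shorter lists.

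Genes of related function that the naming rule leaves out were counted from a list. Of 24 other respiratory chain and assembly genes, HA-EZH1 bound 4, against 10.2% of all genes. They were Cyc1, which encodes cytochrome c1 of complex III, the ATP synthase factors Atpaf2 and Atpif1, and the complex IV factor Pet100. Cyc1 was also bound by SUZ12 and H3K27me3. Of 12 regulators of mitochondrial biogenesis HA-EZH1 bound 3, against the same 10.2% of all genes. These were Gabpa and Gabpb1, the subunits of the GABP factor, and Yy1. Gabpa lies 700 bp from the Atp5j TSS, so that the same peaks can count for both. Tfam, the packaging factor of mitochondrial DNA, was bound by H3K27me3.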

How the data were processed

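ChIP-seq peak lists of C2C12 myotubes were used, 72 in all. Labels cover 78 samples, of which 6 HA inputs were not analysed here. The authors used BBDuk for trimming and BWA 0.7.17 for alignment to mm10 and a Drosophila spike-in genome. They removed duplicates with Picard, filtered with SAMtools 1.7 and called peaks per library with MACS2 2.2.4, per the methods and the submitters' processing notes. The filter applied to the lists afterwards is not stated. The deposited lists give a fold enrichment (a ratio over modelled background), p and q as -log10 values, and a score derived from q. HA-EZH1, Bio-EZH1 and SUZ12 lists are narrow peaks and H3K27me3 lists broad peaks. The lists hold no spike-in factors, so fold enrichments are given as values and were not tested between libraries. Names of the SUZ12 lists begin with a word that could stand for streptavidin, and the labels were followed.

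Gene records came from GENCODE M21. Window, q threshold, overlap and exact tests are given with the results, and the tests were checked on simulated peaks. Python 3.11 with numpy and pandas was used. The genes and lists were chosen with earlier results of these data known. Named genes were the 12 with most HA-EZH1 libraries, the 12 of smallest p over time, up to 10 with most libraries in each other profile, the restricted isoforms, and those with no peak. Others are named where said to be chosen later or where a count is spelled out. Promoter sequences of Atp5a1, Atp5f1, Atp5mpl, Atp5s, Cox17, Cox18, Cox4i1, Cox4i2, Cox6a2, Cox6c, Cox8c, Ndufa2, Ndufa4l2, Ndufaf6, Ndufb9, Ndufs1, Sdhc, Uqcrb, Uqcrc2 and Uqcrq were not used. Alternatives covered the window, TSS, q threshold, list length, neighbouring genes, replicates and, added after seeing the data, the times included.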

Additional observations from a re-analysis of the deposited data

Results flagged for a closer look

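Chromosome X was outside the set, and 2 of its respiratory chain genes carried peaks. Cox7b, a complex IV subunit, had an HA-EZH1 peak in 7 libraries, with 3 of 3 at 20 h, at 2.09 to 3.18-fold, and H3K27me3 in 5 libraries. Ndufa1, of complex I, had H3K27me3 within 3 kb in 13 libraries, none of them at 12 h, the time at which H3K27me3 lists reached the fewest autosomal genes.

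Peaks on the mitochondrial genome were also outside the comparisons. SUZ12 lists of 32 h held 12 such peaks in 3 libraries, at 1.26 to 1.68-fold, of which 8 overlap the protein-coding genes mt-Nd1, mt-Nd2, mt-Co1, mt-Nd4, mt-Nd5, mt-Nd6 and mt-Cytb and 4 overlap none. HA-EZH1 lists of 20 h held 3, at 1.12 to 1.17-fold, and H3K27me3 lists of 12 h held 3, at 1.92 to 1.99-fold, both outside the protein-coding genes.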

How the results depend on the processing

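Under the alternatives, 73 counts stayed within 1.5 times the values reported, 41 were lower and 5 higher. HA-EZH1 bound 14 of 65 genes when those with another TSS within 2 kb were left out, and 12 of 104 when 12 and 32 h were (chosen after seeing the data). Shares of all genes are not given beside the counts of bound genes in this section. Within 1 kb, Bio-EZH1, SUZ12 and H3K27me3 bound 1, 2 and 2 genes. H3K27me3 changed over time there at 1, against 1179 of 2468 of all genes tested. Within 5 kb, Bio-EZH1 bound 7 and SUZ12 10, and SUZ12 changed at 2, against 985 of 2673 of all genes tested. With q under 0.01, H3K27me3 changed at 1, against 996 of 2574 of all genes tested. With the 2000 peaks of smallest q, Bio-EZH1, SUZ12 and H3K27me3 bound 0, 2 and 6. SUZ12 and H3K27me3 changed at 0 and 1, against 604 of 849 and 800 of 1297 of all genes tested. HA-EZH1 differed from Bio-EZH1, SUZ12 and H3K27me3 at 12, 14 and 18. Over all genes tested these differences were 2527 of 3408, 2367 of 3381 and 2776 of 3896. Without genes near another TSS, Bio-EZH1 bound 1, and HA-EZH1, SUZ12 and H3K27me3 changed at 11, 0 and 1. Over all genes tested these changes were 1230 of 2430, 974 of 2115 and 1096 of 2614. HA-EZH1 then differed from Bio-EZH1 and SUZ12 at 11 and 14, against 3406 of 4987 and 3655 of 5314 of all genes tested. Differences that turned were HA-EZH1 minus H3K27me3 at Ndufa3 (7 within 1 kb and 13 with the top peaks), Cox7c (10 and 11), Ndufa9 (10 and 9) and Ndufa10 (6 and 2), HA-EZH1 minus SUZ12 at Ndufa3 (7 and 13), and at Ndufa10 (-7 within 5 kb). The cause was not tested.

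Leaving out a replicate gave 0 genes over time in each profile. HA-EZH1 then differed from Bio-EZH1, SUZ12 and H3K27me3 at 12 to 14, 13 to 13 and 23 to 26 genes. HA-EZH1, Bio-EZH1, SUZ12 and H3K27me3 bound 29 to 30, 4 to 7, 7 to 8 and 13 to 15. Of all genes tested, 3229 of 5072, 3262 of 5015 and 3289 of 5112 differed from Bio-EZH1 without replicates 1, 2 and 3. For SUZ12 these were 3204 of 5299, 3294 of 5263 and 3222 of 5318. For H3K27me3 they were 6095 of 7897, 6189 of 7863 and 6114 of 7877. With 2 libraries a time, or without 20 and 24 h (0 HA-EZH1 genes over time), no gene of the genome passed. The exact test then has fewer arrangements and a larger smallest possible p, and the cause of the loss was not tested. With 2 libraries a time, the 0 cannot show whether the calls are stable. Replicate numbers did not pair the HA-EZH1 samples: deviations of same-numbered samples correlated at -0.148 to 0.0314. With a replicate block, HA-EZH1, SUZ12 and H3K27me3 changed over time at 11, 0 and 0 genes, and HA-EZH1 differed from SUZ12 at 14. Over all genes tested these were 1093 of 3260, 349 of 2262 and 0 of 2851 over time, and 3399 of 6370 from SUZ12. Depth is unknown, so a missing peak does not show absent binding.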
